A study of Mus musculus with 2 samples.

Results

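The 8 genes described here encode the 4 neuregulins (Nrg1, Nrg2, Nrg3 and Nrg4) and the 4 receptors of the ErbB family (Egfr, Erbb2, Erbb3 and Erbb4), out of 55536 annotated genes measured. They were chosen by symbol, and all 8 symbols matched a single gene each, with 54 annotated transcripts between them, 28 of which are marked as protein-coding. The source of the RNA was left cerebral cortex, taken at 36 days of age from 2 females of B6CASTF1/J, hybrid mice with a C57BL/6J and a CAST/EiJ parent. Each mouse gave 1 library from 300 ng of RNA, stranded, reduced in ribosomal RNA and spiked with ERCC control RNAs. The libraries held 29417200 (replicate 1) and 35188800 (replicate 2) expected counts, each rounded to the nearest 100. Both mice belong to the same group, so the data hold no treatment, second tissue or second age. With 1 library per mouse there is no p-value. A mean ± SD has n = 2, the 2 mice, and their spread may be technical in part.

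Neuregulins are growth factors that carry an EGF-like domain and are usually made as membrane-bound precursors, which proteases cut to release or expose that domain. They bind ErbB3 and ErbB4, which pair with each other or with ErbB2, a receptor with no known ligand of its own. ErbB3 has little kinase activity and signals through its partner, while the EGF receptor answers mainly to other ligands of the EGF family. In the cortex ErbB4 is best known from inhibitory interneurons and ErbB3 from the oligodendrocyte lineage.

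Alternative exons of Erbb4 and Nrg1 are printed here because the transcript values below turn on them. Erbb4 uses either of 2 juxtamembrane exons next to the membrane: JM-a makes a receptor that a protease can cut, and JM-b makes a form that resists cutting. A further exon is present in the CYT-1 form and skipped in the CYT-2 form, and it carries a binding site for phosphatidylinositol 3-kinase. Nrg1 ends its EGF-like domain with either an alpha or a beta exon, and beta forms bind the receptors more tightly. The sequences come from the GENCODE M21 transcripts of build mm10 (GRCm38), 5′ to 3′ on the minus strand. Capitals mark the exon and lower case marks 15 bases of each neighbouring exon.
Erbb4 JM-a exon, chr1:68290243-68290317: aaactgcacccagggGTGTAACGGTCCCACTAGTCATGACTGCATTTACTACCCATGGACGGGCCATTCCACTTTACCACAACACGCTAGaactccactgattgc
Erbb4 JM-b exon, chr1:68290439-68290483: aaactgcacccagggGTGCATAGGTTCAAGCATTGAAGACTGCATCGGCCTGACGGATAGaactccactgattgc
Erbb4 CYT-1 exon, chr1:68043908-68043955: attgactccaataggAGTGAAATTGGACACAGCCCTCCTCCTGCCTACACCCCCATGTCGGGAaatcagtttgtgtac
Erbb4 CYT-2 junction, where the exon is skipped: attgactccaataggaatcagtttgtgtac
Nrg1 EGF alpha exon, chr8:31838261-31838328: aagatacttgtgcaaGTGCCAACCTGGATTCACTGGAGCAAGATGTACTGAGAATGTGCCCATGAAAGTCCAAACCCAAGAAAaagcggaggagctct
Nrg1 EGF beta exon, chr8:31837670-31837728: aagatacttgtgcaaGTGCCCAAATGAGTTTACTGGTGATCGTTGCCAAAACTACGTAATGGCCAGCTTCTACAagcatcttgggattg
The JM-a, JM-b and CYT-1 exons are 75, 45 and 48 bases long, all whole multiples of 3, so that each can be used or skipped without a change of reading frame. The alpha and beta exons are 68 and 59 bases long. They open with the same 5 bases and share 28 of the 59 positions counted from the exon start.

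Markers of cortical cells were present in both libraries. The median level was 347 ± 7.80 TPM (a transcript's share of all transcripts in a library, corrected for its length and scaled to a fixed total) for 6 excitatory neuron markers and 45.95 ± 4.82 TPM for 8 inhibitory neuron markers. It was 121 ± 14.4 TPM for 8 oligodendrocyte markers, 13.5 ± 1.41 TPM for 6 precursor markers and 51.8 ± 0.431 TPM for 7 astrocyte markers. In these whole-tissue libraries, fewer cells of a type and less RNA per cell cannot be told apart.

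Of the 8 genes, 6 reached 1 TPM in each of the mice, against 26.1% of all annotated genes. The annotated genes include noncoding ones, while each of the 8 has protein-coding transcripts, so that background is not a like-for-like one. Nrg3 was the highest and Nrg4 the lowest. The listed order by TPM was the same in both mice: Nrg3, Erbb4, Nrg1, Egfr, Nrg2, Erbb3, Erbb2 and Nrg4. Within a library, Nrg3 exceeded Erbb4 1.29 times in replicate 1 and 1.22 times in replicate 2 in TPM. In the second transcript table it did so 1.61 and 1.49 times. Across the mice the gap was narrow, since the lower Nrg3 value was 26.97 TPM and the higher Erbb4 value was 26.7 TPM. In expected counts, with no length correction, Erbb4 was the higher of the pair in both mice. The ranges of Egfr and Nrg2 overlapped between the mice, as did those of Nrg2 and Erbb3, so the order within those pairs was not resolved beyond the spread. In the second transcript table Nrg2 stood above Egfr in replicate 1. The levels themselves depended on the table and the scale. The second table gave higher means for all 8 genes, by over 1.5 times for Nrg3 (49.99 TPM against 30.8), Egfr (11.2 against 6.63), Nrg2 (9.50 against 5.12) and Nrg4 (0.750 against 0.335). With TPM rescaled over nuclear protein-coding genes only, all 8 means were over 1.5 times higher, from 0.764 TPM for Nrg4 to 55.0 TPM for Erbb4 and 69.1 TPM for Nrg3.

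**Figure D1:**
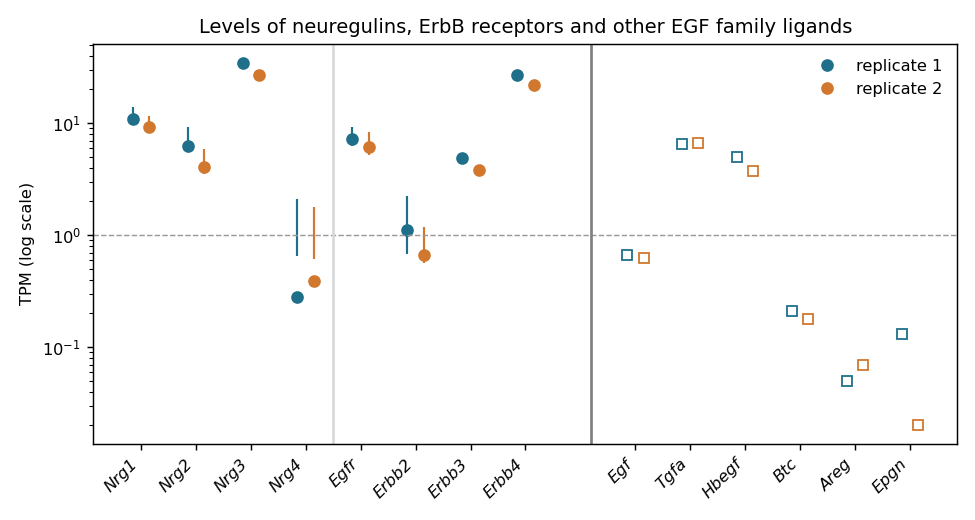
Level in TPM (log axis) of each neuregulin and ErbB receptor (circles, with the authors' deposited interval as a line) and of other EGF family ligands (open squares), in replicate 1 and replicate 2. Nrg3 and Erbb4 lie highest in both mice, and the dashed line marks 1 TPM; Ereg, listed at 0, is not drawn.

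Nrg3, a neuregulin made mainly in the nervous system that binds ErbB4, stood at 34.6 TPM in replicate 1 and 26.97 TPM in replicate 2, a mean of 30.8 ± 5.38 TPM. It was higher than 71.8% of the 12754 expressed nuclear protein-coding genes. The gene lies on chromosome 14, from 38368952 to 39473088 (ENSMUSG00000041014.17). It took 66.4% of the summed neuregulin TPM in replicate 1 and 66.2% in replicate 2, so its place among the ligands was nearly the same in both mice.

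Nrg1, the neuregulin with the most annotated transcripts of the 4 (18), followed at 11 TPM in replicate 1 and 9.34 TPM in replicate 2, a mean of 10.2 ± 1.17 TPM. It made up 22.0% ± 1.27 of neuregulin TPM. Nrg3 exceeded Nrg1 3.02 ± 0.181 times in TPM and 3.35 ± 0.135 times in the second table. Nrg1 lies on chromosome 8, from 31814551 to 32884029 (ENSMUSG00000062991.7).

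Nrg2, a close relative of Nrg1, stood at 6.2 TPM in replicate 1 and 4.04 TPM in replicate 2, a mean of 5.12 ± 1.53 TPM. Its range was wide for its level, and in the second table it was wider still, at 12.5 and 6.53 TPM. Nrg2 took 10.9% ± 1.41 of neuregulin TPM. It lies on chromosome 18, from 36017652 to 36197380 (ENSMUSG00000060275.13).

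Nrg4, a neuregulin that binds ErbB4, rested on 5 counts in replicate 1 and 11 in replicate 2, at 0.28 and 0.39 TPM. Neither of its 2 protein-coding transcripts held a count in either library or in either transcript table, and all of its reads were given to noncoding or decay-prone models. These zeros are a division of 5 and 11 reads among 13 annotated models, not an absence of reads. The authors' interval on TPM reached 0.180 and 0.231 for the coding model Nrg4-213, and 0.179 and 0.234 for the noncoding Nrg4-209, which was given 3.37 and 7.89 counts. Coding and noncoding Nrg4 RNA were thus not separated. Nrg4 lies on chromosome 9, from 55220222 to 55326844 (ENSMUSG00000032311.17). It overlaps Fbxo22 on the opposite strand, which held 747 and 803 counts; a part of such reads in the Nrg4 values was not tested.

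Among the receptors Erbb4 was the highest, at 26.7 TPM in replicate 1 and 22.2 TPM in replicate 2, a mean of 24.5 ± 3.24 TPM. It took 67.1% and 67.8% of the summed receptor TPM, a share that differed little between the mice. It rested on 3521 and 3991 counts, the most of the 8 genes. Erbb4 lies on chromosome 1, from 68032186 to 69108059 (ENSMUSG00000062209.15).

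Egfr, the receptor for EGF and transforming growth factor alpha, stood at 7.18 TPM in replicate 1 and 6.07 TPM in replicate 2, a mean of 6.63 ± 0.785 TPM. It lies on chromosome 11, from 16752203 to 16918158 (ENSMUSG00000020122.16). Erbb3 stood at 4.85 and 3.8 TPM, a mean of 4.33 ± 0.742 TPM, and lies on chromosome 10, from 128567523 to 128589652 (ENSMUSG00000018166.8). Erbb4 exceeded Egfr 3.69 ± 0.0520 times and Erbb3 5.67 ± 0.225 times in TPM. Without length correction, in expected counts, the ratio to Erbb3 was 6.79 ± 0.323.

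Erbb2, the shared partner of the other receptors, was low at 1.11 TPM in replicate 1 and 0.67 TPM in replicate 2, from 68 and 82 counts. The gene had more counts in replicate 2 and yet a lower TPM there. Its deposited effective length was 3264 bases in replicate 1 and 4816 in replicate 2, beside a coding-model share of 37.6% and 83.2%. The log2 ratio of replicate 2 over replicate 1 was -0.73 in TPM and 0.076 in scaled counts (95% counting interval -0.40 to 0.56). Erbb4 exceeded Erbb2 24.1 times in replicate 1 and 33.1 times in replicate 2 in TPM. In expected counts it exceeded Erbb2 51.8 and 48.7 times. Erbb2 lies on chromosome 11, from 98412470 to 98437716 (ENSMUSG00000062312.5), and shares part of its span with Mien1 on the opposite strand, which held 635 and 838 counts and whose part in the Erbb2 values was not tested. Whether the counting used strand is not stated in the labels or headers.

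The ligands as a family outweighed the receptors in TPM, at 52.1 against 39.9 TPM in replicate 1 and 40.7 against 32.7 TPM in replicate 2. The ratio was 1.28 ± 0.0421. In expected counts the order turned, at a ratio of 0.606 ± 0.0107, where length is not corrected; the deposited effective length was 3326 bases for Nrg3 and 7042 for Erbb4 in replicate 1. Which family is higher depends on that correction.

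Of 7 listed other ligands of the EGF family, 2 reached 1 TPM in both mice. This is near the share of all annotated genes, noncoding ones included, which was 26.1%. The 2 were Tgfa at 6.58 ± 0.0849 TPM and Hbegf, the heparin-binding ligand of EGFR and ErbB4, at 4.37 ± 0.849 TPM. Egf itself stood at 0.65 ± 0.0283 TPM, Btc at 0.195 ± 0.0212 TPM, and Areg and Epgn below 0.2 TPM in both mice. Ereg had 0 counts in both libraries, which allows up to 3 (0.102 CPM in replicate 1 and 0.0853 CPM in replicate 2, counts scaled to library size). All 7 thus lay below Nrg1 and Nrg3 in both mice, and Tgfa was at about the level of Egfr. Tgfa lay above Nrg2 in both mice, at 6.52 and 6.64 TPM against 6.2 and 4.04, while Hbegf lay below Nrg2 in both. Egf lay above Nrg4 in both mice, at 0.67 and 0.63 TPM against 0.28 and 0.39.

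Erbb4 reads fell on all 5 annotated transcripts, with 3 carrying the sequence choices printed above. Erbb4-202 (ENSMUST00000121473.7, 27 exons), the JM-a CYT-2 form, led in both mice at 48.7% and 47.4% of the gene's TPM, as the authors' deposited percent per transcript gives it. Erbb4-205 (ENSMUST00000153432.1), the JM-b model, took 45.4% and 43.6%. Erbb4-201 (ENSMUST00000119142.7, 28 exons), the JM-a CYT-1 form, took 2.28% and 4.49%. The JM-b model is incomplete: it ends within the coding region, is 2196 bases long against 12037 for Erbb4-202, and shares 16 of its 19 exons with it.

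The measure decides how large the JM-b share appears. Of the JM-a and JM-b forms together, JM-b took 46.4% ± 1.06 of TPM in the first transcript table and 41.1% ± 0.361 in the second. It took 13.2% ± 0.480 of expected counts and 10.02% ± 0.113 of the second table's estimated counts. TPM divides counts by the model's length, and expected counts do not. The JM-b model is short and incomplete, and which measure lies nearer its true share was not tested. The mice differed far less from each other than the measures did.

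Among the JM-a models, CYT-1 was the minor form of the cytoplasmic choice in both mice and both tables. The JM-b model is incomplete at its end, and its cytoplasmic form was not assessed. CYT-1 took 4.48% of JM-a TPM in replicate 1 and 8.61% in replicate 2, and 4.35% and 9.44% in the second table. Erbb4-201 had 133 and 294 expected counts, a log2 ratio of 0.94 (0.65 to 1.26, counting error only). The authors' deposited intervals on its TPM, 0.243 to 1.203 in replicate 1 and 0.594 to 1.63 in replicate 2, overlap. The headers do not name the level of those intervals, and TPM carries the shift between libraries given below. Their overlap neither separates the 2 mice nor shows them to be alike. The CYT-2 model Erbb4-202 differed little, with a log2 ratio of -0.067.

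**Figure D2:**
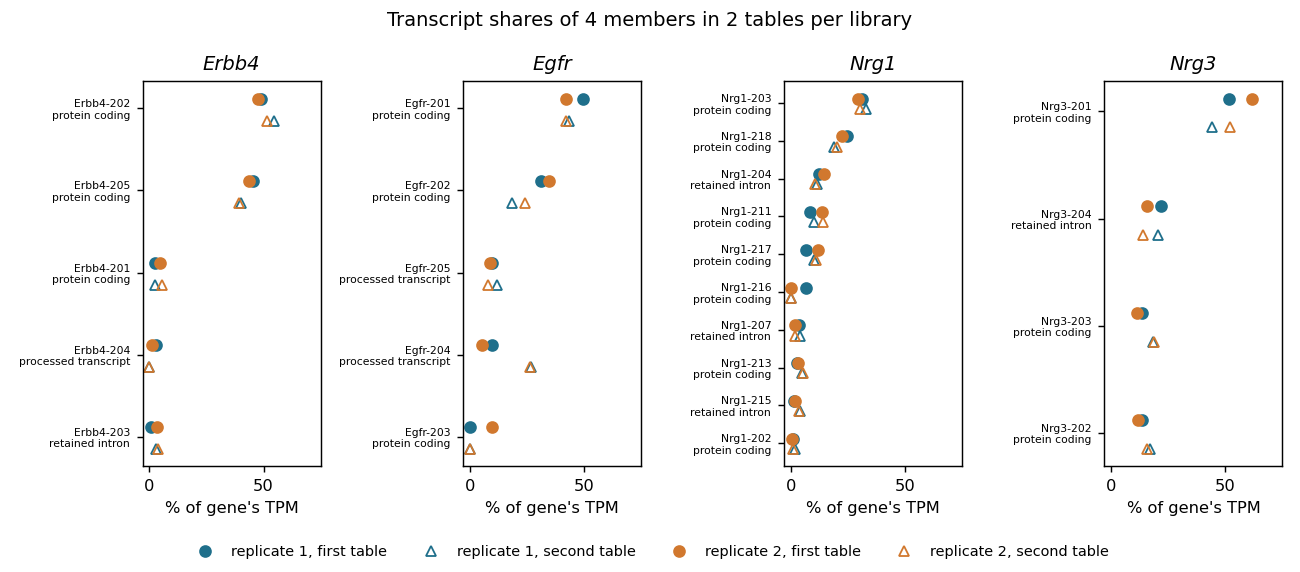
Percent of each gene's TPM taken by transcripts of Erbb4, Egfr, Nrg1 and Nrg3 (those with at least 1% in either table), in both mice, from the first transcript table (circles) and the second (triangles). Erbb4-202 and Erbb4-205 take nearly all of Erbb4, while Nrg1 is spread over many models.

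Nrg1 was divided among more transcripts than any other of the 8 genes, with 9 of its 18 models holding counts in both mice. Nrg1-203 led at 31.5% and 29.6% of TPM, followed by Nrg1-218 at 24.6% and 22.5%. Both carry the beta exon. Together, beta forms took 96.9% of alpha and beta TPM in replicate 1 and 96.2% in replicate 2, and 92.7% ± 1.49 in the second table. Alpha forms rested on 14.3 and 19.4 expected counts.

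At its amino terminus Nrg1 has forms with an immunoglobulin-like domain and type III forms, which begin with a cysteine-rich domain that keeps them in the membrane. Type III forms took 18.9% and 16.7% of coding TPM. All other coding models, called Ig-like forms here without a check of their exons, took 81.1% and 83.3%. In expected counts the type III share was 7.06% and 10.09%. In the second table the type III share was 14.9% and 18.97%, so the order of the mice turned between tables. In replicate 1 a fragment with 4.4 counts held 6.95% of the gene's TPM. No difference between the mice in this share was resolved. The Ig-like forms were divided about evenly in TPM between models whose coding begins most 5′ (49.2% ± 2.82) and all other models. Whether those others share a single first exon was not checked. In expected counts the models with the most 5′ coding start took 30.8% ± 0.781. Retained-intron models, which hold part of an intron, took 18.2% ± 0.512 of Nrg1 TPM.

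Nrg3 was led by Nrg3-201 (ENSMUST00000166968.8, 10 exons), alone among its 3 coding models with an exon of 72 coding bases. It held 51.4% of the gene's TPM in replicate 1 and 61.5% in replicate 2, and 44.3% and 51.9% in the second table. Nrg3-202 and Nrg3-203, which lack that exon, took 13.3% and 13.6% in replicate 1 and 11.6% and 11.4% in replicate 2. Of the 3 coding models, the exon was carried by 65.7% and 72.8% of TPM.

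A retained-intron model of Nrg3, Nrg3-204, took 21.7% of TPM in replicate 1 and 15.6% in replicate 2. It held 493 and 372 expected counts, a log2 ratio of -0.60 (-0.80 to -0.40), while Nrg3-201 had 0.14 (0.037 to 0.25). The second table gave Nrg3-204 20.3% and 13.9%. The same direction was common among models of this kind: 1895 retained-intron models whose mean count reached 100 had a median log2 ratio of -0.44, with 77.3% below 0. The 17301 protein-coding models had a median of 0.072. The part of unspliced RNA in these values was not tested.

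Egfr had a full-length model, Egfr-201 (28 exons), at 49.7% and 42.3% of TPM. A short model, Egfr-202 (16 exons), held 31.3% and 34.6%. The short model shares 14 of its exons with the full-length one, ends in a last exon of its own, and has 1965 coding bases against 3630. Of the pair, the short form took 41.9% ± 4.53 of TPM, 32.9% ± 4.71 in the second table and 16.9% ± 2.60 of expected counts. The full-length form was the larger in both mice on each of these measures.

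Erbb3 has a single annotated transcript (28 exons), so its value rests on no division between models. Nrg2 was led by Nrg2-203 at 71.4% and 70.6% of TPM in the first table. The second table gave it 42.8% and 67.4%, and there the noncoding Nrg2-201 took 43.0% in replicate 1, just above it, and 17.5% in replicate 2. A fragment of 328 bases, Nrg2-204, took 24.4% and 25.2% from only 6.48 and 5.89 counts, and the second table gave it 0. Erbb2-201, the coding model of Erbb2, took 37.6% and 83.2%, and the noncoding Erbb2-202, which shares 23 of its 26 exons exactly with it, took 30.6% and 16.8%. In the second table Erbb2-202 led in replicate 1. With 68 and 82 reads, the coding share of Erbb2 was not resolved.

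**Figure D3:**
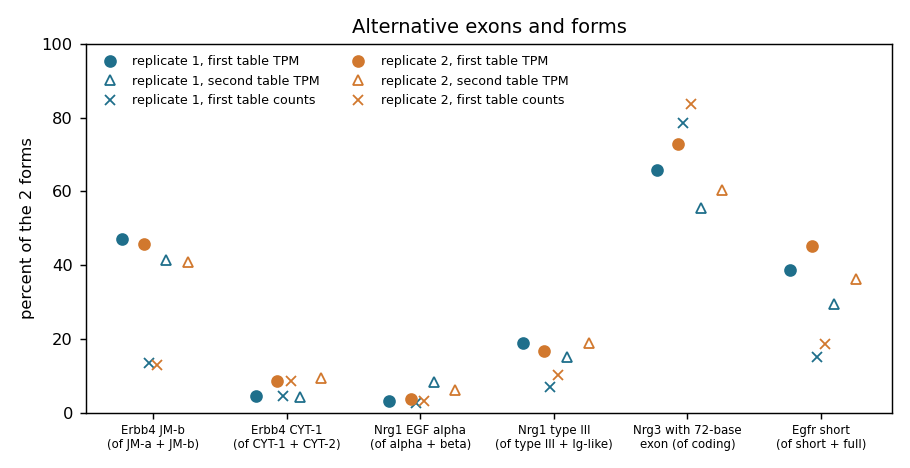
Percent of a pair of forms taken by the named form in each mouse, as TPM of the first table (circles), TPM of the second table (triangles) and expected counts of the first table (crosses). The JM-b form of Erbb4 lies at 46.4% of TPM and 13.2% of counts, while CYT-1 and Nrg1 alpha lie low on every measure.

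The transcript with the largest share was the same in the 2 mice for all 8 genes in the first table, by TPM and by expected counts. Erbb3, with a single annotated transcript, could not differ. For Nrg4 the leader was Nrg4-212 by TPM, from 1 and 2 counts, and Nrg4-209 by expected counts. The same share over all genes was not computed. By the second quantification the leading transcript was the same in both mice for 5 genes, Erbb3 included, the exceptions being Erbb2, Nrg2 and Nrg4. Gene-level expected counts were whole numbers for all 8 genes in both libraries.

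Between the mice, 6 of the 8 genes had mean counts of 100 or more, and 0 of these stood 2-fold apart in TMM-scaled counts, which are corrected for library size and composition. Over the 12613 genes with such counts, 0.706% did (0.27% higher and 0.436% lower in replicate 2). At 1.5-fold the count was again 0, where the background was 3.08% (1.15% higher and 1.93% lower). A count of 0 among 6 genes is near what either background gives. Scaled by the spike-ins, Nrg2 and Egfr passed 1.5-fold, as did 20.97% of all genes, whose median log2 ratio moved to -0.42. All 6 log2 ratios were below 0, with a median of -0.091, against a median of 0.042 and 41.05% below 0 over all genes. In the second table that count was 5 of the 6, Erbb4 being the exception at 0.036. The genes share the same 2 libraries, so their sign is given as a description.

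Nrg2 had the lowest ratio of the 6, with 253 counts in replicate 1 and 223 in replicate 2 and a log2 ratio of -0.37 (-0.64 to -0.11). Egfr had 807 and 821 counts and a ratio of -0.17 (-0.31 to -0.026). The intervals of these 2 genes lay below 0, which covers counting error only. Erbb3 had -0.11 (-0.28 to 0.064), Nrg3 -0.074 (-0.16 to 0.011), Erbb4 -0.012 (-0.078 to 0.054) and Nrg1 -0.011 (-0.17 to 0.15). For Erbb4 the interval is narrow, so a change of 1.5-fold lies far outside its counting error. Nrg4 had a ratio of 0.74 (-0.70 to 2.82), which its 5 and 11 counts do not resolve. Across 18187 genes the biological coefficient of variation between the libraries was 12.2%.

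In deposited TPM, 7 of the 8 genes were lower in replicate 2, Nrg4 being the exception. That measure was shifted between the libraries, with a median log2 ratio of TPM of -0.20 over the 12613 genes. The log2 ratio of TPM was -0.24 for Nrg1 and -0.27 for Erbb4, close to that median, and -0.62 for Nrg2, well below it.

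**Figure D4:**
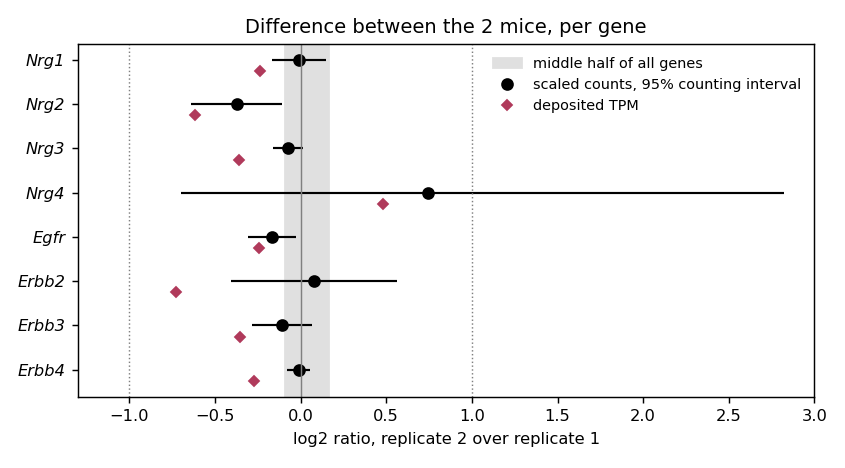
Log2 ratio of replicate 2 over replicate 1 for each gene, from TMM-scaled counts with a 95% counting interval (black) and from deposited TPM (diamonds); the grey band is the interquartile range of all genes whose mean count reached 100. Dotted lines mark 2-fold, and the TPM ratios lie to the left of the scaled counts for every gene shown.

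Marker lists of the cells named above were expressed in full, against 26.1% of all annotated genes, noncoding ones included. None of the genes on these lists stood 1.5-fold apart, against 3.08% of all genes whose mean count reached 100. The 8 inhibitory neuron markers had a median log2 ratio of 0.034 and summed to 657 and 606 TPM, beside -0.012 for Erbb4. The 8 oligodendrocyte markers had -0.090 and summed to 2151 and 1623 TPM, and the 6 precursor markers had 0.00046 and summed to 117 and 100.4 TPM, beside -0.11 for Erbb3. The 7 astrocyte markers had 0.13 and summed to 1262 and 1039 TPM, beside -0.17 for Egfr. Slc1a2 alone gave 905 and 706 TPM of those sums. The medians are of scaled counts, while the sums are in deposited TPM, where the median over all genes was -0.20. Ratios ran from -0.064 to 0.30 for inhibitory neuron markers and from -0.34 to 0.32 for oligodendrocyte markers. They ran from -0.26 to 0.12 for precursor markers and from -0.11 to 0.23 for astrocyte markers. The part of cell composition in the values of these receptors was not tested. Immediate early genes, induced by neuronal activity, stood apart with a median of 1.57 over 6 genes. On the choroid plexus and ependyma list, 3 of 5 genes had mean counts of 100 or more, with a median of -0.40. Ttr stood apart at -2.82, while Kl at -0.40 and Foxj1 at -0.11 were within 1.5-fold. None of the 6 well-counted neuregulin and receptor genes was 1.5-fold apart.

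Genes of ligand shedding and processing, which include proteases that cut neuregulins and the receptors, were present throughout. All 12 genes of the shedding list reached 1 TPM in both mice, with a median of 24.95 ± 2.36 TPM. Of all annotated genes, noncoding ones included, 26.1% did. Bace1, the beta-secretase that cuts Nrg1 and Nrg3, was the highest at 39.4 ± 4.53 TPM, and Bace2 the lowest at 3.21 ± 1.71 TPM. Adam10 stood at 30.5 ± 4.82 TPM and Adam17, the main protease that cuts JM-a ErbB4, at 6.75 ± 0.764 TPM. Bace2 had 132 and 224 counts, a log2 ratio of 0.56 (0.25 to 0.89).

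All 17 genes on the list of inhibitors and turnover of the receptors were expressed, against 26.1% of all annotated genes, noncoding ones included. Their median was 14.3 ± 4.30 TPM. The ubiquitin ligase Nedd4 was the highest at 113 ± 11.5 TPM and Lrig3 the lowest at 1.27 ± 0.134 TPM. Rnf41, the ligase known as Nrdp1 that removes ErbB3, stood at 33.0 ± 1.92 TPM, and Errfi1, a direct inhibitor of the receptor kinases, at 11.9 ± 1.12 TPM. Dusp6, a phosphatase of MAP kinases, was 1.5-fold or more apart, with 1340 and 2475 counts and a log2 ratio of 0.69 (0.60 to 0.79). It moved beside the immediate early genes, whose part in it was not tested. The other 15 genes of this list with enough counts were within 1.5-fold.

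All 11 listed partners and chaperones of the receptors were expressed, against 26.1% of all annotated genes, noncoding ones included. Their median was 72.01 ± 5.08 TPM, beside a median of 15.3 TPM over expressed nuclear protein-coding genes. They ran from Cd44 at 1.56 ± 0.170 TPM to the chaperone gene Hsp90ab1 at 649 ± 42.6 TPM. Dlg4, the postsynaptic scaffold PSD-95 that binds ErbB4, stood at 383 ± 29.2 TPM. Cspg5, a brain proteoglycan with an EGF-like domain, stood at 166 ± 11.4 TPM, above all 4 neuregulins.

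Of 28 adaptors and downstream kinases, 27 were expressed, against 26.1% of all annotated genes, noncoding ones included. The median of the list was 41.6 ± 3.59 TPM. Stat5a was the lowest at 0.65 ± 0.127 TPM. Among the Shc adaptors, which bind the phosphorylated receptors, the neuronal gene Shc3 stood at 92.9 ± 19.6 TPM against 4.87 ± 0.799 TPM for Shc1. Pik3r1, a regulatory subunit of phosphatidylinositol 3-kinase, stood at 70.05 ± 14.99 TPM. Mapk3 had a log2 ratio of 0.54, and no gene of this list was 1.5-fold apart.

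Over the 5 lists, 69 of 75 genes reached 1 TPM in both mice, against 26.1% of all annotated genes, noncoding ones included. Of the 67 whose mean count reached 100, 1 was 1.5-fold higher in replicate 2 and 0 were 1.5-fold lower, with a median log2 ratio of 0.025. The share is near the background of 3.08%.

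**Figure D5:**
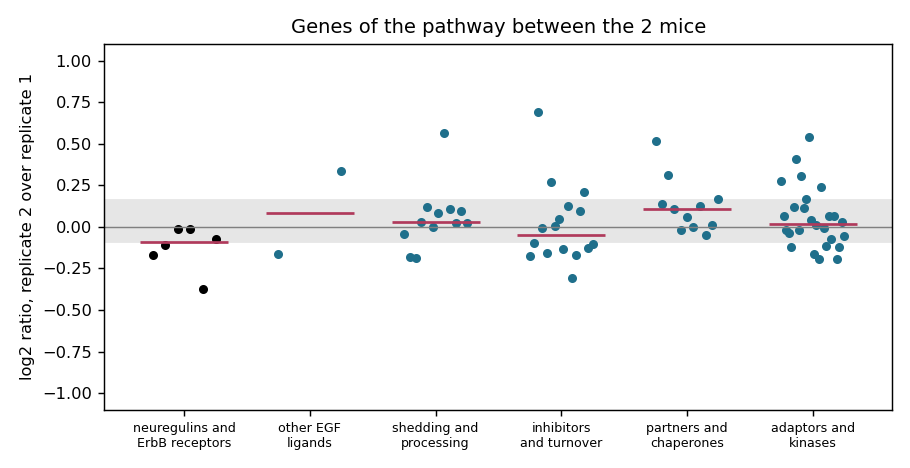
Log2 ratio of replicate 2 over replicate 1 for genes whose mean count reached 100, among the 8 genes (black) and the 5 pathway lists (blue); red lines are medians and the grey band is the interquartile range of all genes. Dusp6 is the highest point at 0.69.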

How the data were processed

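Each of the 2 libraries came with 3 tables. Per the file headers, the authors deposited expected counts, TPM, FPKM and an interval on TPM per gene and per transcript, the percent of a gene's abundance per transcript, and, in a second transcript table with other column names, estimated counts and TPM. Interval levels are not named in the headers. Build mm10 is per the labels and annotation M21 per the deposited notes. The aligner, quantifiers and strand setting: not given in the sources used here. Build mm10 is C57BL/6J sequence, and any loss of CAST/EiJ reads was not tested. FPKM was not used.

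Expected counts were rounded, and log2 ratios are in CPM with TMM library sizes (edgeR 4.0.16, R 4.3.3) over annotated genes and a prior count of 2. Intervals are 95% exact Clopper-Pearson intervals on the split of a gene's reads between libraries; reads carry no molecular identifier, so these intervals, like the 3-count floor, hold counting error alone. Called means 2-fold or 1.5-fold apart with a mean count of at least 100, with no test. Transcript forms were grouped by coding exons of the M21 annotation. Shares are of TPM unless counts are named. The log2 ratio and the counting interval were tested on simulated counts, and the transcript shares and groupings were not. DESeq2 1.42.0 gave size factors as an alternative; Python 3.11.15, pandas 2.3.3 and scipy 1.17.1 were used.

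Labels gave the group and the replicate numbers, with separate animals. Genes named are the 8 members and, per list, the highest, the lowest, those 1.5-fold apart and those with a direct role. The highest gene of the adaptor and kinase list is not reported here. The members and lists were chosen with earlier results of these data known; no genes were sought for likeness of pattern, since 2 libraries give none. The alternatives that keep complete or coding transcripts only were chosen after seeing the data.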

Additional observations from a re-analysis of the deposited data

How the results depend on the processing

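The count of 0 genes 2-fold apart held under DESeq2 size factors, spike-in scaling, a prior count of 0.5, the second table, ratios of TPM and no minimum count. The count of 0 genes 1.5-fold apart became 2 (Nrg2 and Egfr) with spike-in scaling, which moved the median of all genes to -0.42 and put 20.97% of them past that size. It became 1 (Nrg2) with ratios of TPM and 1 (Nrg4) with no minimum count. Leading transcripts agreed between the mice for 5 genes in the second table in place of 8, and both counts include Erbb3 with its single transcript. The Nrg3 share of neuregulin TPM, 66.3%, was 66.7% in the second table, 71.2% in expected counts, 65.9% with complete transcript models only and 65.4% with protein-coding transcripts only. Leaving out either mouse gave 66.2% to 66.4%. The Erbb4 share of receptor TPM, 67.4%, was 63.2%, 72.2%, 54.1% and 69.4% under those same settings, and 67.1% to 67.8% with either mouse left out. The fall to 54.1% follows from dropping the incomplete JM-b model. Between 6 and 7 members and between 69 and 71 pathway genes counted as expressed under every alternative run. Depth limits Nrg4 and Erbb2, with mean counts of 8 and 75.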

Other observations

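Apart from Fbxo22 over Nrg4 and Mien1 over Erbb2, no gene that overlaps the span of a member held more than 17 counts in either library. Of the antisense genes, Nrg3os, Gm20641 and Gm20642 in Nrg3 and 4930471G03Rik in Nrg2 had 0 counts in both libraries, and Egfros had 2 and 1. Erbb4 spans 1075874 bases, and 6 genes annotated as sense intronic or as still to be verified lie within it on the same strand. Together they held 30 counts in replicate 1 and 32 in replicate 2, a log2 ratio of -0.093 (-0.86 to 0.67), against 3521 and 3991 for Erbb4 itself.

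The deposited interval of Nrg4 did not hold its deposited value. There the interval on TPM ran from 0.647 to 2.11 in replicate 1, above the listed 0.28 TPM, and from 0.613 to 1.77 in replicate 2, above the listed 0.39 TPM.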
